A study of Mus musculus with 17 samples.

Results

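Cell fusion genes were described in pre-osteoclasts (preOCs) and in the macrophages they come from. The 10 genes, of 41388 in the deposited tables, were chosen by name as genes known from osteoclast or macrophage fusion: Dcstamp, Ocstamp, Cd9, Cd81, Tspan7, Cd47, Sirpa, Cd200, Cd44 and Adam8. All 10 were found in the tables. Bone marrow macrophages (BMMs) are cultured out of marrow under macrophage colony-stimulating factor (M-CSF), and RANKL drives them toward the osteoclast. The RNA-seq held 6 Bap1flox and 5 Bap1LysM preOC libraries, labelled osteoclast, which received M-CSF with RANKL at 100 ng/ml for 24 h, and 3 BMM libraries of each genotype that received M-CSF without RANKL. All mice carried loxP sites in both copies of Bap1, which encodes a deubiquitinase. Bap1LysM mice also carried LysM-Cre, a recombinase inserted in the lysozyme gene Lyz2 and active across myeloid cells, and Bap1flox littermates had no Cre. The preOCs came from 20-week-old male mice, and no age or sex is given for the mice of the BMM libraries. The comparisons asked which fusion genes move with RANKL and whether loss of Bap1 changes their levels.

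Osteoclasts become multinucleated by fusing mononuclear precursors. The multipass membrane proteins DC-STAMP and OC-STAMP are needed for this step and are induced by RANKL through NFATc1 and AP-1. Tetraspanins such as CD9 and CD81 organise membrane patches and restrain or allow contact between cells. The surface proteins CD47 and SIRP alpha, CD200 and its receptor, CD44 and ADAM8 act in recognition and attachment between macrophages. In culture, multinucleated cells appear days after RANKL is first added.

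The libraries held 37967542 to 61369441 counted reads. The libraries fall into a first set, replicates 1 to 3, and a second set, replicates 4 to 6, whose deposited tables follow another naming pattern, though the sample titles do not. The sets also differed in the share of mitochondrially encoded counts (0.481% to 1.07% against 2.36% to 5.26%). Among same-numbered preOC libraries this share was higher in Bap1LysM than in Bap1flox each time. It was 1.02% against 0.667%, 1.07% against 0.481%, 3.38% against 2.84%, 3.71% against 2.36% and 5.26% against 3.64%. BMMs exist only among replicates 1 to 3. Where the sets differ, preOC results are therefore also given within them, at 3 against 2 and 3 against 3 libraries. Bap1 itself had 70.3 to 97.1 CPM (counts scaled to the library total) in Bap1flox preOCs and 55.9 to 87.7 CPM in Bap1LysM preOCs (log2 fold change -0.22, SE 0.10, adjusted p = 0.18 by edgeR), and gene counts cannot show whether the retained transcript lacks the deleted part. Lyz2, which holds the Cre, was at 0.152% to 0.436% of its Bap1flox preOC mean in 4 of 5 Bap1LysM preOC libraries and at 75.1% in replicate 1. In Bap1LysM BMM replicate 1 it was at 42.8%, against 0.173% and 0.146% in the other two. The study's methods give the Bap1LysM mice as carrying Cre on only one of their Lyz2 copies, so neither the levels near 0 nor the spread among libraries of this label follow from the stated genotype. Bap1 counts do not separate the genotypes in preOCs. In BMMs Bap1 had 74.8 to 77.1 CPM in Bap1LysM, with replicate 1 at 76.8 CPM, against 82.1 to 84.4 CPM in Bap1flox. These ranges did not overlap, as for 32.6% of all genes, and the log2 fold change was -0.11 (adjusted p = 0.34 by edgeR). With these Lyz2 levels the label of the Bap1LysM libraries numbered 1 is in doubt and was not settled here, and they are counted under Bap1LysM as labelled. All 8 osteoclast markers (among them Acp5, Ctsk and Nfatc1) rose with RANKL in both genotypes, where 58.1% of all genes in Bap1flox and 38.9% in Bap1LysM cells rose or fell. Between genotypes in preOCs 0 of 8 passed edgeR's test, beside 15.8% of all genes. At an unadjusted p under 0.05 stood 1 of the 8, as did 3939 of 12929 genes. The summed CPM of the 8 markers was lowest in replicate 1 of each genotype, at 6951 in Bap1flox and 5764 in Bap1LysM preOCs, against 10091 to 17232 in the other preOC libraries.

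The genes lie on 6 chromosomes of the GRCm38 assembly, and counts cover their exons. Dcstamp (ENSMUSG00000022303) is at chr15:39745932-39760934 on the forward strand, with 1993 exonic bases. Ocstamp (ENSMUSG00000027670) is at chr2:165393760-165400405 on the reverse strand, with 3657. The tetraspanin genes are Cd9 (ENSMUSG00000030342) at chr6:125460266-125494791, Cd81 (ENSMUSG00000037706) at chr7:143052739-143067934 and Tspan7 (ENSMUSG00000058254) at chrX:10485158-10596605. Cd47 (ENSMUSG00000055447) is at chr16:49855618-49915010, Sirpa (ENSMUSG00000037902) at chr2:129592835-129632228, Cd200 (ENSMUSG00000022661) at chr16:45382135-45409053, Cd44 (ENSMUSG00000005087) at chr2:102811141-102901665 and Adam8 (ENSMUSG00000025473) at chr7:139978932-139992562. A transcript on the opposite strand shares exon bases with 3 of them. Its own counts per library were 0 to 6 for Gm26728 at Cd9, 10 to 127 for R74862 at Cd81 and 41 to 119 for Gm16201 at Adam8, far below the counts of the fusion genes, and whether counting used strand is not stated in the sources used here.

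RefSeq promoter sequences (GRCm38.p6, 250 bases before to 50 after a start site) were at hand for 7 of the 10 genes: Cd9, Cd81, Tspan7, Cd47, Cd200, Cd44 and Adam8. Since RANKL acts on fusion genes through NFATc1 and AP-1, the AP-1 letters TGANTCA, the NFAT core GGAAA, the E-box CANNTG and the PU.1 core GAGGAA were searched on both strands. The promoters of Cd9 and Cd44, which rose with RANKL, and of Cd81, which fell, are shown 5′ to 3′ with the NFAT core or its reverse complement in capitals. They lie at chr6:125494711-125495010 (reverse strand), chr2:102901616-102901915 (reverse strand) and chr7:143052500-143052799 (forward strand).
Cd9: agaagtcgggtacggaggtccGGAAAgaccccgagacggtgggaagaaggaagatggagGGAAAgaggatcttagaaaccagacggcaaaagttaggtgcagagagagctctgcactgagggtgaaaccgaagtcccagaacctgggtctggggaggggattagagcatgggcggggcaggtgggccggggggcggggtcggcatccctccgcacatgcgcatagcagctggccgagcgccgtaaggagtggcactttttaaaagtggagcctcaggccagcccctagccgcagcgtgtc
Cd44: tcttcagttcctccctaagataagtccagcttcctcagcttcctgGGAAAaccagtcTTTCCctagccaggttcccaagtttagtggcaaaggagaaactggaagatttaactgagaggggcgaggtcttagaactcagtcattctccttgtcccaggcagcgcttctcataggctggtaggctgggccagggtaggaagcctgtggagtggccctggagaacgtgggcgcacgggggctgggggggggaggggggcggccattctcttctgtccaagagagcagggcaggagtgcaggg
Cd81: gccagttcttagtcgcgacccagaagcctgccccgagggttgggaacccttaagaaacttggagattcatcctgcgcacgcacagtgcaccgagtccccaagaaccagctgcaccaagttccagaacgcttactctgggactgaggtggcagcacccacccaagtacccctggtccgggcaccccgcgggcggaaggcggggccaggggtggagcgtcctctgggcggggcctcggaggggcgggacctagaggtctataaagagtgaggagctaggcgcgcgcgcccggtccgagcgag

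The NFAT core was found 2 times each in the Cd9 and Cd44 promoters and 0 times in those of Cd81, Tspan7, Cd47, Cd200 and Adam8. Of all 32851 promoters of this length, 61.3% hold it. Cd200 and Tspan7 also rose with RANKL and Cd81 fell, so among these genes the letters and the direction of the response did not go together one to one. The AP-1 letters, held by 7.8% of promoters, were in none of the 7. E-boxes (in 72.3% of promoters) numbered 3 in Cd9, 2 in Cd200 and 1 each in Cd81, Tspan7 and Adam8. The PU.1 core (28.3%) was in Cd44, with 2 matches, and in Cd200, with 1. None of these PU.1 matches shared bases with an NFAT match, although GAGGAA followed by A would hold both. A match is a run of letters and not a measured site.

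**Figure D1:**
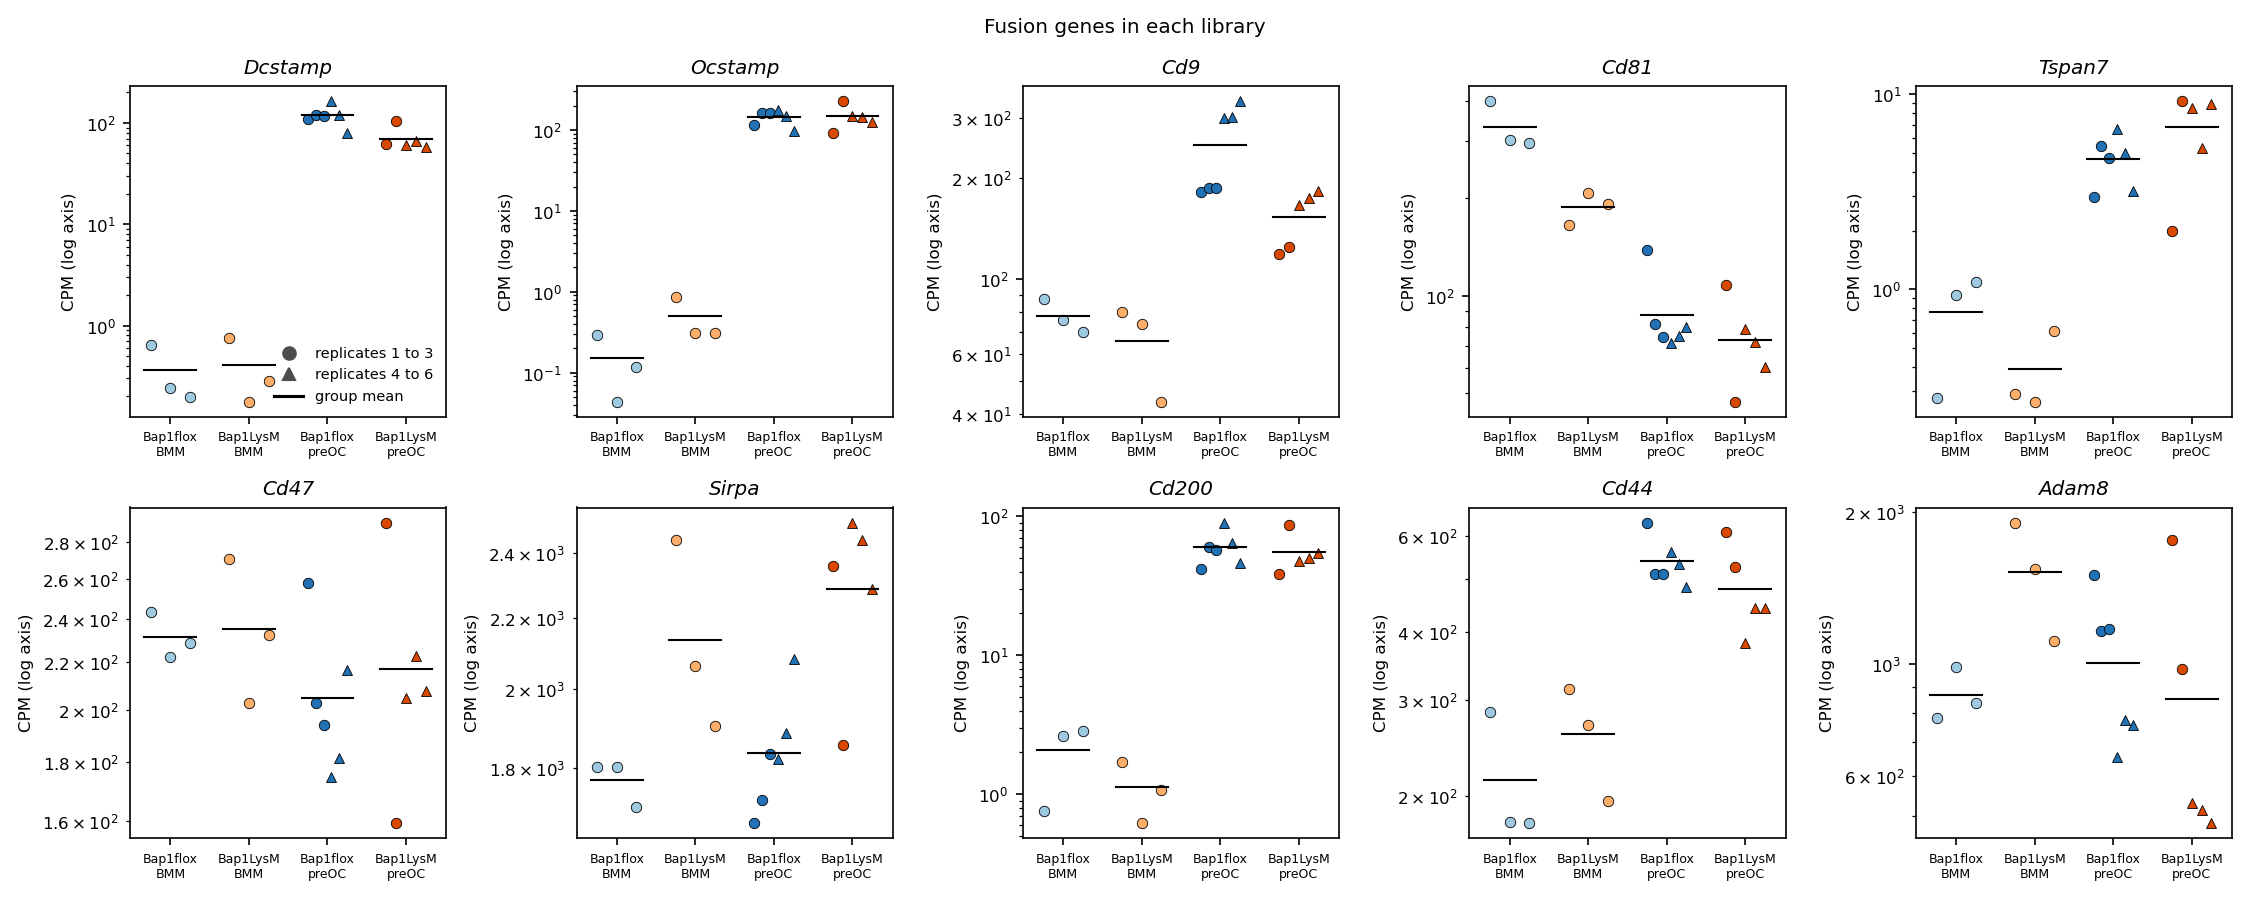
CPM of each fusion gene in each library, on log axes that differ between panels, by group. Circles are replicates 1 to 3, triangles replicates 4 to 6 and lines group means. Dcstamp and Ocstamp lie under 1 CPM in all 6 BMM libraries and over 58 CPM in all 11 preOC libraries, while Sirpa stays between 1671 and 2500.2 CPM throughout.

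Per exonic length (RPKM, CPM per kilobase of exon), Sirpa had the highest mean level of the 10 genes in every group and Adam8 the next, but their ranges overlapped in both Bap1LysM groups, and those of Adam8 and Cd81 overlapped in Bap1flox BMMs. In Bap1flox BMMs the order went on with Cd81 (147 ± 25.5 RPKM, SD, n = 3), Cd47 (43.8 ± 2.01), Cd9 (37.99 ± 4.36) and Cd44 (31.6 ± 9.06), and the ranges of Cd47 and Cd9 and of Cd9 and Cd44 overlapped. Cd200, Dcstamp, Tspan7 and Ocstamp were all under 1 RPKM there. In Bap1flox preOCs Cd9 (122 ± 35.1, n = 6) and Cd44 (79.7 ± 7.90) came after Adam8, followed by Dcstamp (59.5 ± 13.7), Ocstamp (39.5 ± 8.44), Cd47 (38.8 ± 5.70) and Cd81 (38.3 ± 11.2). From Adam8 to Cd81, each of these overlapped its neighbour. In Bap1LysM preOCs Dcstamp (35.2 ± 9.50, n = 5) stood below Cd47 (41.1 ± 9.02) and Ocstamp (40.5 ± 13.7), again with overlapping ranges. Tspan7 was lowest in both preOC groups, at 0.660 ± 0.195 and 0.964 ± 0.443 RPKM.

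RANKL responses were compared within replicates 1 to 3 by edgeR's quasi-likelihood test, with p adjusted over all 13637 genes tested. In Bap1flox cells 7 of 10 fusion genes passed the adjusted p of 0.05, beside 58.1% of all genes: Dcstamp, Ocstamp, Cd200, Tspan7, Cd44 and Cd9 rose and Cd81 fell. In Bap1LysM cells the same 7 passed in the same directions, beside 38.9% of all genes. Both use libraries that also enter the genotype comparisons. The libraries of preOCs and BMMs did not overlap for 8 of 10 fusion genes in Bap1flox (71.8% of all genes) and 7 of 10 in Bap1LysM cells (54.9%), so shares of this order are common in this contrast. The median log2 fold change of the 10 was 1.13 in Bap1flox and 0.91 in Bap1LysM cells, beside -0.03 and 0.01 over all genes tested. The 10 were chosen by name as known fusion genes, some of them known to be induced by RANKL, so the choice itself favours a higher median.

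**Figure D2:**
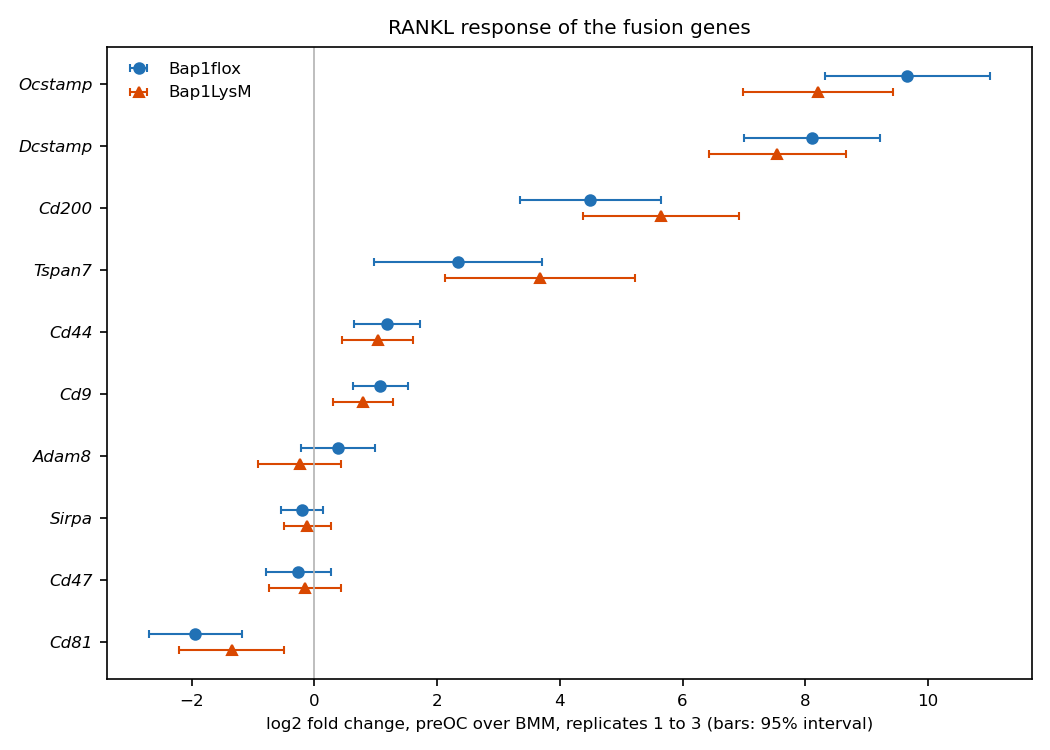
Log2 fold change of preOCs over BMMs (replicates 1 to 3) for each fusion gene, with 95% intervals; circles are Bap1flox (3 against 3 libraries) and triangles Bap1LysM (2 against 3). Ocstamp and Dcstamp stand apart at 7.54 or more, Cd81 alone lies below 0 with intervals that exclude it, and the intervals of both genotypes overlap for every gene.

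Dcstamp, which encodes DC-STAMP, a receptor-like protein on which fusion depends, had 0.646, 0.240 and 0.195 CPM in Bap1flox BMMs and 0.761, 0.177 and 0.287 CPM in Bap1LysM BMMs. These rest on 8 to 35 reads per library. In Bap1flox preOCs its lowest, median and highest values were 79.4, 119 and 164 CPM. The Bap1LysM preOCs of replicates 1, 2, 4, 5 and 6 had 61.3, 104, 61.1, 66.2 and 58.2 CPM. Dcstamp was thus near absent before RANKL and abundant after it, and in preOCs 4 of 5 Bap1LysM libraries lay below all 6 Bap1flox libraries. It rose 276-fold with RANKL in Bap1flox cells (log2 fold change 8.11, SE 0.50, adjusted p = 7e-06) and 186-fold in Bap1LysM cells (7.54, SE 0.50, adjusted p = 1.9e-05). These folds rest on the few BMM reads: on the log2 scale they were 8.88 without Bap1flox BMM replicate 1 and 8.35 without Bap1LysM BMM replicate 1, with ranges of 7.80 to 8.88 and 7.15 to 8.35 over the libraries left out in turn. Without both Bap1LysM libraries numbered 1 the Bap1LysM response was 8.63.

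Between genotypes in preOCs, 2 of the 10 fusion genes passed the adjusted p over 12929 genes, beside 15.8% of all genes, and Dcstamp was 1 of them. It was lower in Bap1LysM preOCs, at 0.620 of the Bap1flox level (log2 fold change -0.69, 95% interval -1.07 to -0.31, SE 0.17, adjusted p = 0.021). Within library sets the difference was -0.42 (SE 0.18, adjusted p = 0.31) in replicates 1 to 3 and -0.91 (SE 0.21, adjusted p = 0.01) in replicates 4 to 6, and with the set as a term it was -0.69 (adjusted p = 0.011). The call was lost without Bap1LysM replicate 4, 5 or 6 (-0.65, -0.68 and -0.63, adjusted p = 0.064, 0.058 and 0.055). Without Bap1LysM replicate 1, the library with high Lyz2, it stood at -0.66 (adjusted p = 0.031). In bulk RNA, fewer cells that have induced Dcstamp and less Dcstamp RNA per cell cannot be told apart.

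Ocstamp, which encodes the related OC-STAMP, had 0.295, 0.0437 and 0.117 CPM in Bap1flox BMMs (16, 2 and 6 reads) and 0.873, 0.309 and 0.306 CPM in Bap1LysM BMMs (39, 14 and 16 reads). In preOCs it reached 98.1, 156 and 176.6 CPM (lowest, median, highest) in Bap1flox and 91.6, 228, 147, 146 and 127 CPM in Bap1LysM libraries. Its preOC ranges overlapped between genotypes, with Bap1LysM replicate 2 above and replicate 1 below all Bap1flox libraries. It rose 812-fold with RANKL in Bap1flox cells (log2 fold change 9.67, SE 0.60, adjusted p = 7.1e-06) and 296-fold in Bap1LysM cells (8.21, SE 0.55, adjusted p = 1.9e-05), the largest responses of the 10 genes. With libraries left out in turn the log2 fold change ran from 9.26 to 10.59 in Bap1flox, highest without BMM replicate 1. In Bap1LysM it ran from 7.51 without preOC replicate 2 to 8.91 without BMM replicate 1, and it was 9.39 without both libraries numbered 1. The genotype difference in preOCs was 0.11 (95% interval -0.33 to 0.54, adjusted p = 0.75). The low BMM counts kept Ocstamp, Dcstamp and Tspan7 under the filter of 1 CPM in 2 of 6 libraries in the BMM comparison. Without a filter Ocstamp, whose BMM ranges did not overlap, differed by 1.69 (SE 0.72, adjusted p = 0.27) between BMM genotypes and Dcstamp by 0.20 (SE 0.66, adjusted p = 0.89).

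Set against each other within a library, which cancels depth, Ocstamp counts were 1.05 to 1.403 times those of Dcstamp in the 6 Bap1flox preOC libraries (mean 1.22 ± 0.142, SD) and 1.49, 2.20, 2.41, 2.20 and 2.19 times in the 5 Bap1LysM preOC libraries (mean 2.10 ± 0.351). These ranges did not overlap, and replicate 1 with high Lyz2 lay closest to the Bap1flox values. In BMMs the ratio was 0.457, 0.182 and 0.6 in Bap1flox and 1.15, 1.75 and 1.07 in Bap1LysM libraries, from few reads. The ratio was chosen after the values of both genes had been seen and is given as a description with no test.

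**Figure D3:**
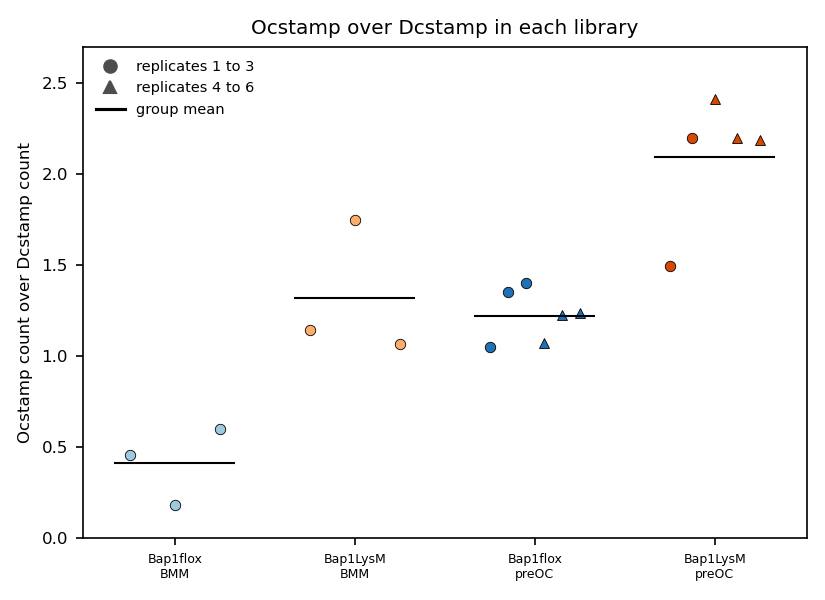
Ratio of Ocstamp to Dcstamp counts in each library by group, with circles for replicates 1 to 3, triangles for replicates 4 to 6 and lines for group means. All 5 Bap1LysM preOC libraries (1.49 to 2.41) lie above the 6 Bap1flox preOC libraries (1.05 to 1.403).

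Over all 17 libraries, the genes whose log2(CPM + 0.5) followed Dcstamp most closely among 12861 genes were Scin, which encodes the actin-severing protein scinderin (Pearson r = 0.996), Zfp263 (0.994), Ocstamp (0.993), Mt3 (0.993) and Spns2 (0.992). For Ocstamp they were Cyp2s1 (0.998), Scin (0.998), Slc9b2 (0.998), Car2, the carbonic anhydrase of the resorbing osteoclast (0.997), and Spns2 (0.995). These values describe the step from BMM to preOC that all points share. Of the other fusion genes Cd200 was nearest to both (0.979 and 0.980), Cd44 (0.928 and 0.913), Tspan7 (0.891 and 0.913) and Cd9 (0.878 and 0.849) came next, and Cd81 ran opposite (-0.886 and -0.920). Mt3 had mean levels of 35.0 CPM in Bap1flox and 17.5 CPM in Bap1LysM preOCs, while Scin had 98.6 and 82.6 CPM.

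The tetraspanins CD9 and CD81 are close relatives that act on the fusion of macrophages, and their genes went opposite ways with RANKL. Cd9 had 87.3, 75.8 and 69.8 CPM in Bap1flox BMMs and 80.2, 73.7 and 43.4 CPM in Bap1LysM BMMs. In Bap1flox preOCs it had 182, 187 and 187 CPM in replicates 1 to 3 and 302, 303 and 338 CPM in replicates 4 to 6. In Bap1LysM preOCs it had 119 and 125 CPM in replicates 1 and 2 and 166, 174 and 183 CPM in replicates 4 to 6. Within each library set every Bap1LysM library lay below every Bap1flox library, and in both genotypes replicates 4 to 6 lay above replicates 1 to 3. Cd9 rose with RANKL by 1.07 (SE 0.20, adjusted p = 0.0012) in Bap1flox and by 0.79 (SE 0.22, adjusted p = 0.017) in Bap1LysM cells on the log2 scale. The latter was 0.76 and 0.82 without Bap1LysM preOC replicate 1 or 2, each of which leaves 1 library in that group.

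Across all preOC libraries the Cd9 genotype difference was -0.63 (95% interval -1.12 to -0.15, SE 0.22, adjusted p = 0.077), which missed the threshold, and the ranges overlapped. With a term for the set it was -0.67 (SE 0.07, adjusted p = 0.00012), and with same-numbered libraries paired in a replicate block -0.68 (SE 0.08, adjusted p = 0.0017). It was -0.51 (SE 0.09, adjusted p = 0.17) in replicates 1 to 3 alone and -0.79 (SE 0.09, adjusted p = 0.00041) in replicates 4 to 6 alone. With the set as a term 33.6% of all genes passed and with the block 32.8%, so these fits call more of all genes, and whether the set marks a batch of mice, cultures or sequencing is not given in the sources used here. In BMMs the Cd9 difference was -0.22 (SE 0.23, adjusted p = 0.57).

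Cd81 had 400, 302 and 297 CPM in Bap1flox BMMs and 166, 208 and 192 CPM in Bap1LysM BMMs. It had 71.6, 77.6 and 138 CPM (lowest, median, highest) in Bap1flox preOCs and 108, 47.0, 78.7, 72.0 and 60.2 CPM in Bap1LysM preOCs. The BMM genotypes did not overlap, the preOC genotypes did, and all preOC libraries lay below all BMM libraries. RANKL lowered Cd81 in Bap1flox cells (log2 fold change -1.94, SE 0.34, adjusted p = 0.00085) and in Bap1LysM cells (-1.35, SE 0.38, adjusted p = 0.019). In the latter it stood at -2.17 without preOC replicate 1 and at -0.83 without preOC replicate 2, each of which leaves 1 Bap1LysM preOC library.

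In BMMs, of the 7 fusion genes tested 1 passed, Cd81, beside 5.32% of 13028 genes. It was at 0.571 of the Bap1flox level in Bap1LysM BMMs (log2 fold change -0.81, 95% interval -1.13 to -0.48, SE 0.14, adjusted p = 0.029). Of the 7, Cd81, Sirpa and Adam8 had ranges that did not overlap between BMM genotypes, as did 32.6% of all genes at 3 against 3 libraries. The Cd81 call held without Bap1flox replicate 1 (-0.65, adjusted p = 0.039) and was lost without Bap1flox replicate 2 or 3 or Bap1LysM replicate 1, 2 or 3 (-0.88 to -0.75, adjusted p = 0.054 to 0.1). Fewer genes passed in all in several of these fits, 7 and 4 without Bap1flox replicates 2 and 3 and 84 without Bap1LysM replicate 2, against 693. The summed megakaryocyte and platelet markers were 750.5, 501 and 475 CPM in Bap1flox and 257, 375 and 346 CPM in Bap1LysM BMMs. None of the 4 tested passed by edgeR, with 1 at an unadjusted p under 0.05 (Pf4, adjusted p = 0.069), and their list median was -0.34. The summed stromal markers were 569.8, 2653 and 3013 CPM in Bap1flox and 412, 1127 and 1401 CPM in Bap1LysM BMMs. None of the 5 stromal markers tested passed by edgeR, with 0 at an unadjusted p under 0.05 and a median of -0.95. Of the B cell and plasma cell markers 3 of 4 passed in BMMs (75%), Cd79b lower (-1.05, adjusted p = 0.036) and Jchain (3.07, adjusted p = 0.022) and Igkc (2.82, adjusted p = 0.045) higher. The part of these markers in the Cd81 difference was not tested. In preOCs the difference was -0.15 (95% interval -0.65 to 0.35, adjusted p = 0.69).

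Tspan7, an X-linked tetraspanin known in osteoclasts for the organisation of the cytoskeleton, was the least abundant of the 10 in preOCs. It had 0.277, 0.940 and 1.09 CPM in Bap1flox BMMs and 0.291, 0.265 and 0.611 CPM in Bap1LysM BMMs. In preOCs it had 2.98, 4.86 and 6.62 CPM (lowest, median, highest) in Bap1flox and 1.99, 9.24, 8.55, 5.29 and 8.98 CPM in Bap1LysM libraries. The Bap1LysM values of replicates 2, 4 and 6 lay above, and that of replicate 1 below, all Bap1flox preOCs. It rose with RANKL by 2.34 (SE 0.61, adjusted p = 0.0084) in Bap1flox and 3.68 (SE 0.69, adjusted p = 0.0028) in Bap1LysM cells on the log2 scale. The latter was 2.30 without preOC replicate 2, 4.38 without preOC replicate 1 and 4.23 without both libraries numbered 1, all with 1 Bap1LysM preOC library left. The preOC genotype difference was 0.61 (SE 0.34, adjusted p = 0.25), and without Bap1LysM replicate 1 it was 0.85 (adjusted p = 0.026).

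Sirpa encodes SIRP alpha, the inhibitory receptor of macrophages that binds CD47, and was the other gene past the preOC genotype test. It had 1800.5, 1801 and 1706 CPM in Bap1flox BMMs and 2444, 2062 and 1902 CPM in Bap1LysM BMMs. Bap1flox preOCs had 1671, 1827 and 2083 CPM (lowest, median, highest), and Bap1LysM preOCs 2357, 1855, 2500.2, 2443 and 2286 CPM. Thus 4 of 5 Bap1LysM preOC libraries lay above all Bap1flox preOCs, and replicate 2 lay among them. The preOC level was 1.32-fold higher in Bap1LysM (log2 fold change 0.40, 95% interval 0.14 to 0.66, SE 0.12, adjusted p = 0.044). The difference was 0.38 in each library set alone (adjusted p = 0.34 in replicates 1 to 3 and 0.019 in replicates 4 to 6).

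The Sirpa call stood near the threshold. It was lost without any one of Bap1flox preOC replicates 1 to 5 or Bap1LysM preOC replicates 4 to 6 (0.36 to 0.42, adjusted p = 0.075 to 0.12) and kept without Bap1flox replicate 6 or Bap1LysM replicate 1 or 2 (adjusted p = 0.027, 0.048 and 0.0083). In BMMs Sirpa differed by 0.29 (SE 0.13, adjusted p = 0.22), with 3 of 3 Bap1LysM libraries above all Bap1flox libraries, and by 0.15 (adjusted p = 0.33) without Bap1LysM BMM replicate 1. With RANKL it differed by -0.20 (SE 0.15, adjusted p = 0.28) in Bap1flox and -0.12 (SE 0.17, adjusted p = 0.63) in Bap1LysM cells, and the latter turned to 0.030 without Bap1LysM BMM replicate 1 and 0.11 without preOC replicate 2. Neutrophils also carry SIRP alpha, and 6 of 8 neutrophil markers tested were higher in Bap1LysM preOCs (75%, beside 15.8% of all genes). The summed level of the neutrophil markers was 166, 188, 584, 424 and 575 CPM in Bap1LysM preOC replicates 1, 2, 4, 5 and 6, against 67.0 to 184 CPM in Bap1flox preOCs. Their part in the Sirpa difference was not tested.

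Cd47, which encodes the ligand of SIRP alpha, had no call with RANKL in either genotype and none between genotypes in preOCs or BMMs, like Adam8. It had 243, 222 and 229 CPM in Bap1flox BMMs and 270.4, 203 and 232 CPM in Bap1LysM BMMs. In preOCs it had 175, 198 and 258 CPM (lowest, median, highest) in Bap1flox and 291, 159, 205, 223 and 208 CPM in Bap1LysM libraries. The groups overlapped throughout. The preOC genotype difference was 0.17 (95% interval -0.17 to 0.52, adjusted p = 0.49). The RANKL response was -0.26 (95% interval -0.79 to 0.26) in Bap1flox and -0.15 (-0.74 to 0.44) in Bap1LysM cells. The latter was -0.73 without Bap1LysM preOC replicate 1 and 0.27 without replicate 2, each of which leaves 1 library in that group. It was 0.0013 without Bap1LysM BMM replicate 1.

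Cd200 encodes a surface ligand of the inhibitory CD200 receptor of myeloid cells, and only Ocstamp and Dcstamp of the 10 rose more. It had 0.757, 2.62 and 2.85 CPM in Bap1flox BMMs and 1.70, 0.618 and 1.07 CPM in Bap1LysM BMMs. In preOCs it had 41.7, 58.4 and 90.2 CPM (lowest, median, highest) in Bap1flox and 38.3, 86.3, 47.7, 49.9 and 54.5 CPM in Bap1LysM libraries. RANKL raised it 22.6-fold in Bap1flox cells (log2 fold change 4.499, SE 0.52, adjusted p = 8.4e-05) and 50.1-fold in Bap1LysM cells (5.65, SE 0.57, adjusted p = 0.00014). The latter was 5.04 on the log2 scale without preOC replicate 2 and 6.52 without both libraries numbered 1. The genotypes overlapped in both states. The difference was -0.05 (95% interval -0.52 to 0.42, adjusted p = 0.89) in preOCs and -0.84 (SE 0.58, adjusted p = 0.39) in BMMs, and in BMMs without the libraries numbered 1 it was -1.68 (adjusted p = 0.034). The receptor gene Cd200r1 went the other way with RANKL in Bap1flox cells (log2 fold change -1.66, SE 0.32, adjusted p = 0.0015).

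Cd44 encodes the hyaluronan and osteopontin receptor. It had 285, 179 and 178 CPM in Bap1flox BMMs and 314, 270.3 and 196 CPM in Bap1LysM BMMs. In preOCs it had 485, 523 and 636 CPM (lowest, median, highest) in Bap1flox and 611, 526, 382, 442 and 444 CPM in Bap1LysM libraries. Every preOC library lay above every BMM library. The increase with RANKL was 1.19 (SE 0.24, adjusted p = 0.002) in Bap1flox and 1.03 (SE 0.26, adjusted p = 0.012) in Bap1LysM cells. The latter was 0.84 without Bap1LysM preOC replicate 1, which leaves 1 library in that group. The genotype difference in preOCs was -0.09 (95% interval -0.35 to 0.18, adjusted p = 0.66), with 0.14 in replicates 1 to 3 and -0.26 in replicates 4 to 6 (adjusted p = 0.7 and 0.06).

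Adam8 encodes a membrane metalloprotease that promotes osteoclast formation. It had 784, 989 and 839 CPM in Bap1flox BMMs and 1908, 1542 and 1111 CPM in Bap1LysM BMMs. In Bap1flox preOCs it had 1501, 1165 and 1177 CPM in replicates 1 to 3 and 655, 777 and 758 CPM in replicates 4 to 6, and in Bap1LysM preOCs 1760, 980.4, 531, 515 and 484 CPM. In both genotypes replicates 1 to 3 lay above replicates 4 to 6. In replicates 4 to 6 all 3 Bap1LysM libraries lay below the 3 Bap1flox libraries (log2 fold change -0.46, SE 0.10, adjusted p = 0.0074), in replicates 1 to 3 the difference was 0.21 (SE 0.32, adjusted p = 0.74), and over all preOC libraries it was -0.14 (95% interval -0.90 to 0.61, adjusted p = 0.81). In BMMs Adam8 was higher in 3 of 3 Bap1LysM libraries (0.83, SE 0.22, adjusted p = 0.073). With the replicate block this BMM difference was 0.79 (adjusted p = 0.043), which takes the BMM count from 1 to 2 fusion genes. It was 0.59 (adjusted p = 0.11) without Bap1LysM BMM replicate 1, the library with high Lyz2 and the highest Adam8, and 1.02 (adjusted p = 0.039) without Bap1LysM BMM replicate 3, and it missed the threshold without any one of the other BMM libraries (adjusted p = 0.13 to 0.24). With RANKL it differed by 0.38 (adjusted p = 0.25) in Bap1flox and -0.24 (adjusted p = 0.57) in Bap1LysM cells. The latter turned to 0.0027 without Bap1LysM BMM replicate 1 and 0.17 without preOC replicate 2. It was -0.81 without preOC replicate 1 and -0.57 without all libraries numbered 1. Leaving out preOC replicate 1 or 2 leaves 1 Bap1LysM preOC library.

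Over the 10 genes together, 1 rose and 1 fell between preOC genotypes and 3 had an unadjusted p under 0.05, as did 3939 of all 12929 genes. The ranges of the preOC groups did not overlap for 0 of 10, beside 10.3% of all genes. The median difference was -0.07, beside -0.01 over all genes tested.

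**Figure D4:**
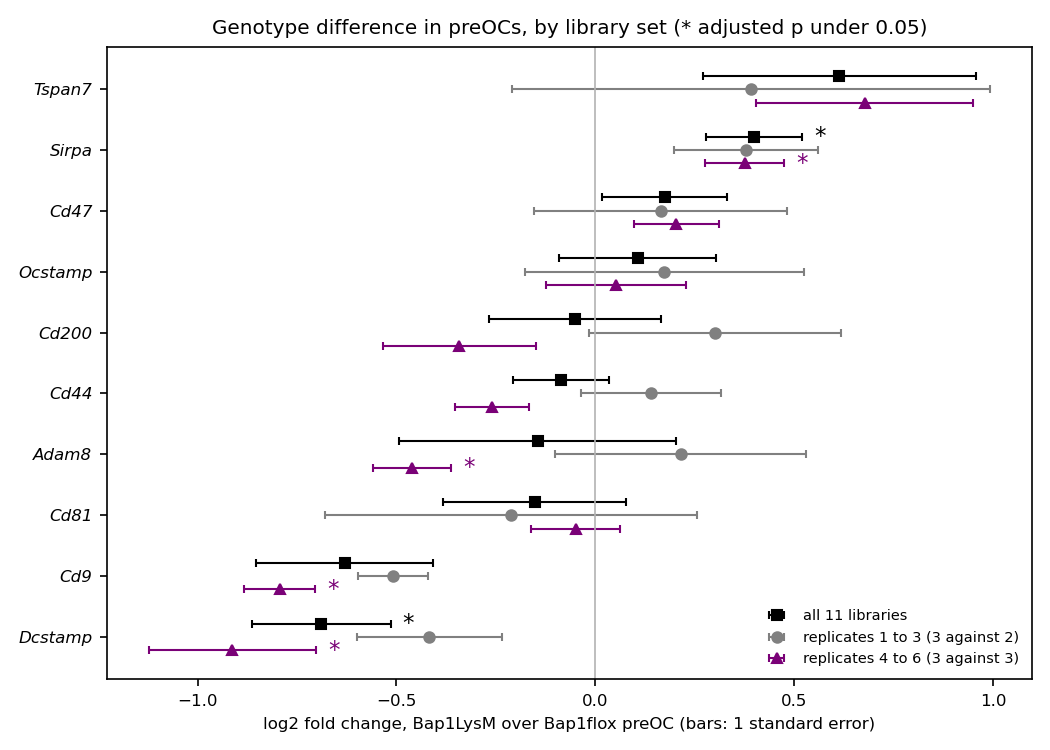
Log2 fold change of Bap1LysM over Bap1flox preOCs for each fusion gene, with bars of 1 standard error and stars where the adjusted p is under 0.05. Squares are all 11 libraries, circles replicates 1 to 3 and triangles replicates 4 to 6. Dcstamp and Cd9 lie below 0 and Sirpa and Tspan7 above 0 in all 3 fits, while Cd200, Cd44 and Adam8 change side between the library sets.

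Whether the RANKL response differed between genotypes was tested as an interaction. By edgeR 0 of 10 fusion genes and 0% of 13637 genes passed, with 0 fusion genes and 1718 genes at an unadjusted p under 0.05. DESeq2 called 117 genes and voomWithQualityWeights 0, with 0 fusion genes in each. A single fit of all 17 libraries called 288 genes, and that fit with a term for the set 1440 (10.4%), again with 0 fusion genes. Leaving out a Bap1LysM preOC library leaves 1 in that group, and the gene counts of such fits are not given. The estimates for the 10 ran from -1.46 for Ocstamp (95% interval -3.36 to 0.45) to 1.34 for Tspan7 (-0.68 to 3.37). With these low BMM counts and 2 to 3 libraries a group, both intervals hold differences of several-fold. For Sirpa the interval was -0.42 to 0.59 and for Cd9 -0.95 to 0.38. Without the libraries numbered 1 of both genotypes, which leaves 1 Bap1LysM preOC library, the Cd200 estimate was 2.28.

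Genes around the fusion genes were described in 7 lists. Of 17 transcription factors and receptors upstream of Dcstamp and Ocstamp, all tested, 11 rose and 2 fell with RANKL in Bap1flox cells (76.5%, beside 58.1% of all genes), among them Fosl2 (log2 fold change 2.81, SE 0.30), Fos (2.67, SE 0.40) and Prdm1 (2.45, SE 0.37), a repressor of macrophage genes. In Bap1LysM cells 11 rose and 2 fell as well (beside 38.9% of all genes). Between preOC genotypes 2 of 17 passed (11.8%, beside 15.8% of all genes): Tal1, a transcription factor of blood stem cells, was lower (-1.15, SE 0.23, adjusted p = 0.0074) and Tnfrsf11a, the gene of the RANKL receptor RANK, was higher (0.33, SE 0.08, adjusted p = 0.013). The NFATc1 gene Nfatc1 differed by 0.27 (SE 0.20, adjusted p = 0.39).

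Of 30 other genes of fusion, 27 were tested, and 12 rose and 10 fell with RANKL in Bap1flox cells (81.5%, beside 58.1% of all genes). Mmp9, the gelatinase of the osteoclast, rose by 7.10 (SE 0.93) and Dock5, an activator of Rac, by 3.27 (SE 0.29), while Stab1, a scavenger receptor of macrophages, fell by 3.23 (SE 0.26) on the log2 scale. In preOCs 3 were higher and 1 lower in Bap1LysM (14.8%, near the 15.8% of all genes). Ano6, a phospholipid scramblase, was higher by 0.53 (SE 0.06, adjusted p = 0.0006) with no overlap of the groups, and Stab1 (0.59, SE 0.18, adjusted p = 0.044) and Adam9 (0.50, SE 0.14, adjusted p = 0.035) were higher with overlap. With the replicate block the adjusted p of Stab1 was 0.056.

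Of 20 other tetraspanins and partners tested in preOCs, 5 were higher and 0 lower in Bap1LysM (25%, beside 15.8% of all genes). Tspan33 was highest by fold (log2 fold change 1.71, SE 0.19, adjusted p = 0.00047), with 4.61 to 6.25 CPM in Bap1LysM and 1.10 to 2.27 CPM in Bap1flox preOCs. Tspan10 (1.64, SE 0.35, adjusted p = 0.0088) was near the detection filter, as was Tspan33 in Bap1flox preOCs, and Tspan3 (0.81, SE 0.19, adjusted p = 0.013) did not overlap between groups. With the fusion genes included, 21 of 33 on this list had a mean over 1 CPM in Bap1flox and 23 in Bap1LysM preOCs. The filter may thus have admitted genes only through Bap1LysM. With RANKL, 2 of 22 rose and 11 fell in Bap1flox cells (59.1%, near the 58.1% of all genes), with the largest changes in Tspan13 (-1.78, SE 0.44), Cd53 (-1.33, SE 0.25) and Rom1 (-1.21, SE 0.20). In Bap1LysM cells 7 rose and 6 fell (59.1%, beside 38.9% of all genes). The difference between these counts was not tested as such, and 0 genes passed the interaction.

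**Figure D5:**
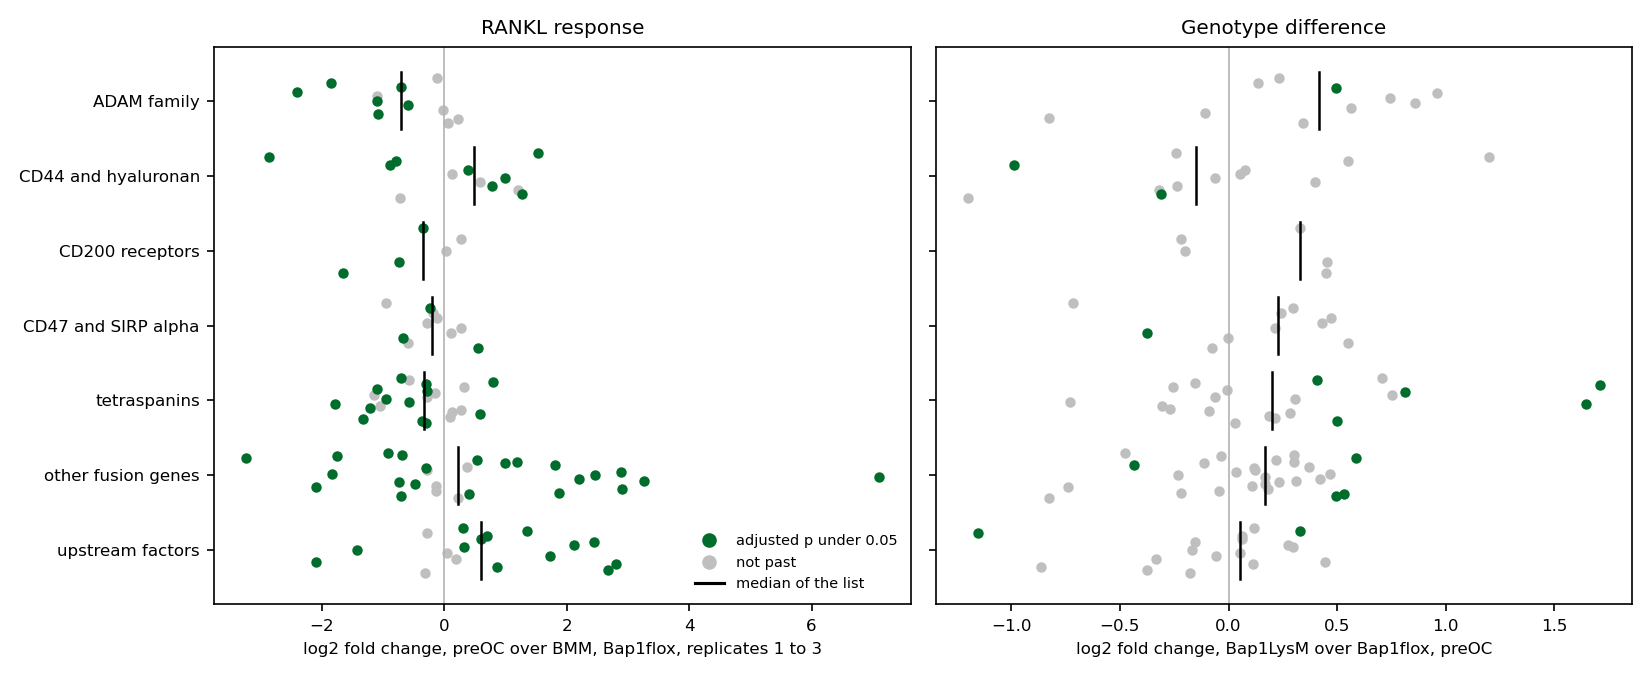
Log2 fold changes of the genes in 7 related lists, fusion genes left out, with RANKL in Bap1flox cells (left) and between preOC genotypes (right). Points are genes, green where the adjusted p is under 0.05, and black lines are list medians, which lie between -0.70 and 0.60 on the left and between -0.15 and 0.42 on the right.

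Of 12 genes tested around CD44 (ligands, linkers and hyaluronan turnover), 2 were lower and 0 higher in Bap1LysM preOCs (16.7%, near the 15.8% of all genes). Spp1, which encodes osteopontin, a ligand of CD44, had 348 to 455 CPM in Bap1LysM against 772 to 1019 CPM in Bap1flox preOCs (-0.99, SE 0.11, adjusted p = 0.00043), and Ezr, which encodes the linker ezrin, differed by -0.31 (SE 0.08, adjusted p = 0.024). With RANKL in Bap1flox cells 5 rose and 3 fell (66.7%, beside 58.1% of all genes), among them Stab2 (-2.87, SE 0.44), Vcan (1.53, SE 0.30) and Ezr (1.27, SE 0.14).

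Of 10 other genes of CD47 and SIRP alpha signalling, 1 passed between preOC genotypes (10%, below the 15.8% of all genes): Ptpn11, the phosphatase SHP-2 that SIRP alpha recruits, was lower (-0.38, SE 0.12, adjusted p = 0.045). With RANKL in Bap1flox cells Calr rose (0.56, SE 0.17), and Lrp1 (-0.67, SE 0.16) and Skap2 (-0.22, SE 0.08) fell (3 of 10, or 30%, below the 58.1% of all genes). Of 5 tested genes of the CD200 receptor list, 0 passed between preOC genotypes by edgeR and 0 had an unadjusted p under 0.05, and Cd200r1, Cd200r4 (-0.74, SE 0.28) and Rasa1 (-0.34, SE 0.10) fell with RANKL in Bap1flox cells (60%, near the 58.1% of all genes). Of 11 tested genes, other ADAM genes and the integrin genes Itga9 and Itgb1, 0 rose and 6 fell with RANKL in Bap1flox cells (54.5%, near the 58.1% of all genes), led by Adam33 (-2.40, SE 0.32), Itga9 (-1.85, SE 0.17) and Adam22 (-1.10, SE 0.41), and between preOC genotypes 1 of 10 passed (10%, below the 15.8% of all genes), Adam9, which the list of other fusion genes also holds.

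Markers of other cells, of macrophages and of proliferation moved with genotype in preOCs, some up and some down, and those named here were chosen after their values were seen. Of the B cell and plasma cell markers, 3 of 4 tested were higher in Bap1LysM (75%, beside 15.8% of all genes, summed 32.4 to 79.1 CPM against 10.2 to 23.8 CPM), with Jchain (log2 fold change 4.01) and Igkc (3.29) highest, and 4 of 5 proliferation genes were lower (80%, summed 553 to 887 CPM against 895 to 1044 CPM). Of the macrophage markers 2 of 9 were higher (22.2%), Mertk (1.26) and Csf1r (0.41), while Cd14 ran the other way without a call (-0.65, adjusted p = 0.11 by edgeR). Of 3 endothelial markers tested Pecam1 was higher (1.12) and Cdh5 lower (-1.15), and of 4 megakaryocyte and platelet markers Ppbp was higher (1.81). Of 6 stromal markers tested 0 passed, with a median of -0.84. Of the dendritic cell markers 2 of 7 were tested and both were higher, Ccr7 (2.06) and Zbtb46 (1.14), with a summed 5.35 to 11.2 CPM against 3.24 to 5.80 CPM. A mean over 1 CPM was reached by 1 of the 7 in Bap1flox and 2 in Bap1LysM preOCs. The filter may thus have admitted a marker only through the group where it was high. The part of these markers in the genotype differences of the fusion genes was not tested.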

How the data were processed

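RNA-seq of 17 mouse libraries was deposited as gene tables of counts, CPM and RPKM. The authors aligned reads with STAR 2.5.1a and counted unique, unambiguous reads per gene with featureCounts 1.4.6-p5. The deposited CPM values equal the count over the library total (largest difference 5.1e-11), and the deposited RPKM values divide the CPM by exonic length, so a longer gene model lowers RPKM. Counts were tested here, and CPM and RPKM were used for levels. Of 41388 genes, 97.3% had a symbol, and 355 ribosomal RNA genes were left out.

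Counts were fitted with edgeR 4.0.16 (quasi-likelihood test, TMM factors, R 4.3.3) and p-values adjusted by Benjamini-Hochberg over all genes tested, with a threshold of 0.05. Genes needed over 1 CPM in 4 of 11 preOC libraries, 2 of 6 BMM libraries, or 2 of the 11 libraries of replicates 1 to 3 for RANKL. SE is the log2 fold change over the root of the F statistic. Alternatives were limma 3.58.1 (voomWithQualityWeights), DESeq2 1.42.0, other scaling factors and filters, a replicate block, 1 fit of all libraries, a term for the library set, each set alone, and each library left out. Leaving out the libraries numbered 1 was added after seeing the data. Same-numbered libraries deviated together (correlations of 0.61, 0.73, 0.39, 0.67 and 0.48 in preOCs and 0.54, 0.36 and 0.41 in BMMs). Within library sets the preOC correlations were 0.45, 0.38, 0.01, -0.15 and 0.06, so replicates 4 to 6 were not seen to pair beyond their set. The main fits use no pairing, and the block is an alternative.

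The 10 genes and all lists were chosen with earlier results of these data known. From each related list, the text names up to 3 genes past the threshold with the largest changes between preOC genotypes and with RANKL in Bap1flox cells. The preOC samples are described as biologically independent. For BMMs nothing says so, and their p-values measure the spread between these samples. The scripts were tested on simulated counts. Figures used matplotlib 3.10.9.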

Additional observations from a re-analysis of the deposited data

Results flagged for a closer look

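In 26 sets of values (genes, markers and ratios by group of 5 or 6 libraries), 4 had a library far from the others, where chance gives about 1 in 20. Dcstamp in Bap1LysM preOC replicate 2 was at 103.562 CPM, the highest of 5, with the others at 58.2 to 66.2 CPM (gap over range 0.823). Cd81 in Bap1flox preOC replicate 1 was at 138.068 CPM, the highest of 6, with the others at 71.6 to 81.7 CPM (0.849). Lyz2 in Bap1LysM preOC replicate 1 was at 6715.392 CPM, with the others at 13.6 to 39.0 CPM (0.996). The ratio of Ocstamp to Dcstamp counts in the same library was 1.494, the lowest of 5, with the others at 2.19 to 2.41 (0.755).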

How the results depend on the processing

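The main limits are few libraries, library sets that differ, and Bap1LysM libraries numbered 1 with high Lyz2. Of the fusion genes, 2 passed between preOC genotypes. This count was 4 with voomWithQualityWeights, 3 with DESeq2, the replicate block or a term for the set, 1 without a filter, 1 with filterByExpr, 1 with all 17 libraries in a single fit, 0 in replicates 1 to 3 alone, 4 in replicates 4 to 6 alone and 0 to 3 with a library left out. In BMMs the count was 1, against 2 with voomWithQualityWeights, 2 with DESeq2, 2 without a filter, 2 with the replicate block, 0 with all 17 libraries, 0 without both Bap1LysM libraries numbered 1, 2 without all libraries numbered 1 and 0 to 1 with a library left out. With RANKL it was 7 in both genotypes. With a library left out it was 7 in Bap1flox cells, and 7 in Bap1LysM cells where 2 Bap1LysM preOC libraries remained. Leaving out a Bap1LysM preOC library leaves 1 in that group, so the Bap1LysM counts of those fits are not given. In Bap1flox it was 8 with voomWithQualityWeights, 9 on that genotype alone and 8 without libraries numbered 1 (Bap1LysM or all). In Bap1LysM it was 6 with voomWithQualityWeights and 5 on that genotype alone. The interaction count was 0 in the fits that kept 2 or more libraries in each group. The cause of these shifts was not tested.

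Over all genes, the preOC count of 2043 was 7099 with voomWithQualityWeights, 4236 with the replicate block, 4349 with a term for the set, 0 in replicates 1 to 3 alone, 4304 in replicates 4 to 6 alone and 3085 without Bap1LysM replicate 1. The BMM count of 693 was 1772 with voomWithQualityWeights, 2065 with DESeq2, 2107 with the block, 369 without both Bap1LysM libraries numbered 1 and 1359 without all numbered 1, and with a library left out it was 4 to 756, lowest without Bap1flox replicate 3 (4), Bap1flox replicate 2 (7) and Bap1LysM replicate 2 (84). The RANKL count in Bap1LysM cells of 5308 was 2937 with voomWithQualityWeights and 2550 on that genotype alone. The preOC count was 1071 to 3085 with a library left out, lowest without Bap1LysM replicate 5 (1071) or 4 (1074). The interaction count of 0 was 117 with DESeq2, 288 with all 17 libraries and 1440 with these and a term for the set. With a library left out it was 0 where 2 or more libraries remained in each group. Upper-quartile factors split the preOC calls as 699 higher and 1403 lower (921 and 1122 with TMM), and the BMM calls as 144 and 647 (171 and 522). The replicate block changed the calls of Cd9 in preOCs (-0.68), Adam8 in BMMs (0.79) and Stab1 in preOCs, and no other fusion gene's call.

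Log2 differences changed sign in replicates 1 to 3 alone for Adam8 (0.21), Cd200 (0.30) and Cd44 (0.14) between preOC genotypes. Without both Bap1LysM libraries numbered 1 they changed sign for Cd200 in preOCs (0.048), Cd47 in BMMs (-0.10) and, as interactions, Cd47 (-0.32), Cd81 (-0.28), Dcstamp (0.53) and Sirpa (-0.028). Without all libraries numbered 1 they did so for Cd47 in BMMs (-0.054) and the interactions of Cd47 (-0.22), Cd81 (-0.10) and Sirpa (-0.069). With all 17 libraries the RANKL differences of Sirpa in Bap1LysM (0.067) and Skap2 in Bap1flox cells (0.012) changed sign. With a library left out, signs changed between preOC genotypes for Adam8 (-0.62 to 0.0039), Cd200 (-0.23 to 0.12), Cd81 (-0.35 to 0.017) and Ocstamp (-0.066 to 0.23), and in BMMs for Cd9 (-0.43 to 0.012) and Cd47 (-0.10 to 0.17). In Bap1LysM cells with RANKL they changed for Adam8 (-0.81 to 0.17), Cd47 (-0.73 to 0.27) and Sirpa (-0.38 to 0.11). Interactions changed sign for Cd44 (-0.44 to 0.040), Cd47 (-0.47 to 0.53), Cd81 (-0.23 to 1.11), Dcstamp (-1.33 to 0.25), Sirpa (-0.17 to 0.31) and Tspan7 (-0.042 to 2.04).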
